A study of Mus musculus with 16 samples.

Results

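Glomerular capillary endothelial cells (gECs) were selected by their transcripts from single-cell RNA libraries of mouse kidney. A cell barcode had to have 200 to 7000 detected genes and at most 20% of its UMIs (unique molecular identifiers, which count captured transcripts) in mitochondrial genes. It then had to hold at least 1 UMI of Ehd3 and at least 4 summed UMIs of Ehd3, Kdr, Emcn and Plat, with at least 3 of the 4 genes detected. It could hold no UMI of Plvap, Pdgfrb, Ptprc, Cubn, Epcam or Nphs1, which mark endothelium with diaphragms, mural cells, leukocytes, proximal tubule, epithelium and podocytes. This gave 5593 gECs among 53253 barcodes within the quality limits and 116439 barcodes in all.

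Glomerular capillaries are lined by a thin endothelium with open fenestrae, which lack the diaphragms of the fenestrae in peritubular capillaries, and this layer forms the blood side of the filtration barrier. The cells depend on VEGF-A from the neighbouring podocytes, which acts through Kdr (VEGF receptor 2), and they share a basement membrane with the podocytes. In diabetic kidney disease the glomerular endothelium is known for changes in permeability, glycocalyx and nitric oxide production.

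The libraries came from BTBR ob/ob mice, a leptin-deficient strain with obesity and diabetes used as a model of diabetic nephropathy (DN), and from BTBR +/+ mice (control). Each of the 8 groups of genotype, sex and age (6 or 12 weeks) had 2 libraries, and each of the 16 libraries was made from both kidneys of 1 mouse. Per the study's methods, all mice of both genotypes also carried a tdTomato and EGFP reporter allele with a Cre transgene driven by a podocyte promoter. The papilla was removed, proximal tubules were partly depleted on a Percoll gradient, cells were released with a cold-active protease, and dead cells were removed.

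The libraries differed in ways that the groups do not fully explain. The 8 libraries numbered replicate 1 held 4751 of the gECs (292 to 983 each, 12.2% to 37.8% of the barcodes within the limits), and the 8 numbered replicate 2 held 842 (25 to 260 each, 0.838% to 9.25%). The rule of no UMI of the 6 other genes removed 7.01% to 43.0% of otherwise eligible barcodes in replicate 1 libraries and 41.8% to 82.7% in replicate 2 libraries, mostly through Plvap (1872 barcodes) and Pdgfrb (1514). In control males (6 weeks replicates 1 and 2, then 12 weeks) it removed 33.8%, 45.7%, 26.5% and 57.5%. In DN males, in the same order, it removed 43.0%, 62.1%, 42.0% and 71.2%. Control females lost 7.01%, 54.5%, 27.4% and 75.2%, and DN females 14.4%, 41.8%, 23.8% and 82.7%. The part of this selection in the DN results was not tested apart from the fits without the rule. Median UMIs per gEC were 1716 to 4964 in replicate 1 and 4330 to 6523 in replicate 2, and the summed gEC counts in tested genes ran from 157591 UMIs (control female 12 weeks replicate 2, 25 cells) to 4388091 (control male 12 weeks replicate 1). Replicate 1 of the 4 female groups shared 23 to 55 barcodes per pair of libraries but only 0 to 3 with any of the other 12 libraries, which shared 7 to 32 with each other. The labels do not say why. These 4 libraries are treated as a barcode batch, read from the shared barcodes alone, with its own term in the model, and results are also given for the larger batch of 12, for the 12 libraries with at least 100 gECs, and without that term.

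The rule fixed the presence of its own markers, with Ehd3 in 100% of gECs, Emcn in 99.3%, Plat in 97.7% and Kdr in 93.6%, and a median of 53 UMIs of the 4 genes together, so these values only describe the selection. Pecam1 and Cdh5, junction proteins of all endothelium that the rule did not use, had a UMI in 88.1% and 84.2% of gECs. All 21 pan-endothelial genes tested and 17 of 20 genes of a glomerular endothelial list were above their level in all barcodes within the limits, whereas 0 of 10 mesangial, 0 of 8 smooth muscle and renin, 0 of 8 immune, 0 of 11 proximal tubule and 0 of 9 distal nephron genes were. Of other lists, 12 of 14 arterial, 5 of 11 peritubular and venous, 2 of 12 podocyte and 5 of 5 erythrocyte genes were above that level. Just outside the rule, 361 barcodes met every other condition but had no Ehd3 UMI. A marker sum of 4 was held by 14 gECs, and 12 otherwise eligible barcodes had a sum of 3.

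The share of gECs varied far more between libraries than between genotypes. Among barcodes within the limits it was 15.1% ± 16.3 (SD, n = 4 mice) in controls and 13.9% ± 10.0 in DN at 6 weeks, and 8.72% ± 9.09 and 8.36% ± 8.06 at 12 weeks. Over both ages the difference was −0.791 percentage points (two-sided exact permutation test within age and sex, p = 0.895, smallest possible p 0.00154). At 6 weeks it was −1.22 points (p = 0.944) and at 12 weeks −0.359 points (p = 0.833), where the exact permutation test could not go below 0.0556. The sign of the difference over both ages changed when the no-UMI rule was dropped (1.99 points), so no direction can be read from it. Intervals on each library's share cover counting error only.

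**Figure D1:**
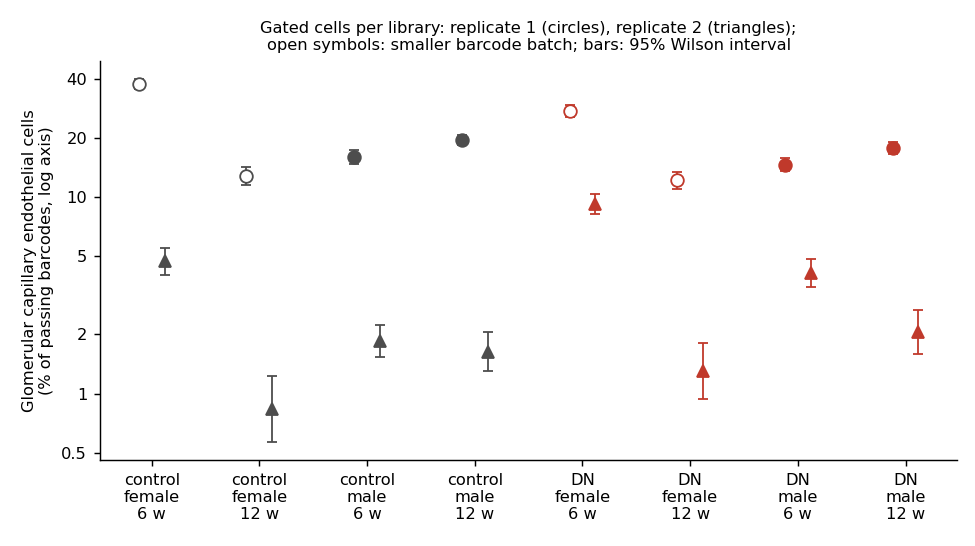
Share of glomerular capillary endothelial cells among barcodes within the quality limits (percent, log axis) in each of the 16 libraries, by group, with 95% Wilson intervals. Circles are replicate 1, triangles replicate 2 and open symbols the smaller barcode batch. The replicate 2 libraries (0.838% to 9.25%) lie below the replicate 1 libraries (12.2% to 37.8%) in both genotypes.

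To ask which transcripts of gECs differed between DN and control, UMI counts were summed per library, given as counts per 1000000 (CPM) after TMM scaling, and fitted in 1 model of 16 libraries with sex within age, genotype within age and barcode batch. Of 9823 genes tested, 126 differed over both ages (1.28%), 71 higher (0.723%) and 55 lower (0.56%) in DN, at a Benjamini-Hochberg adjusted p under 0.05. With the 8 genotype pairs of the same age, sex and replicate number as a block there were 358 calls (3.64%, 2.02% higher and 1.63% lower). Whether same-numbered mice were paired was not tested apart from these counts. Without the barcode batch term there were 18 calls, in the larger batch alone 83, and with libraries of at least 100 gECs 68. Wherever they were tested under those settings, the 71 higher and 55 lower genes kept their direction. Without the no-UMI rule there were 142 calls, but only 20 of the 71 higher and 24 of the 55 lower genes were among them, and 1 of the 55 turned. Of the genes named below by rule, Serpine2, Gpihbp1, Ctsb, Cxcl16, Hdc, Bgn, Qrfpr, Ak1, Gimap3, Keg1, Calca, Brinp2, Ugt2b38, Erc2, Ankdd1b and Scn7a were also called over both ages without the barcode batch term, and the others were not. Of the 71 higher genes, 60 were above their level in all barcodes within the limits, as were 39 of the 55 lower genes and 6154 of all 9823.

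Gpihbp1, the endothelial protein that holds lipoprotein lipase on the capillary wall (chr15:75596628-75599481, mm10, plus strand), was higher in every DN mouse than in any control. At 6 weeks the controls were at 415, 258, 210 and 157 CPM and the DN mice at 714, 700.0, 558 and 639. At 12 weeks the controls were at 338, 361, 212 and 332 CPM and the DN mice at 950.5, 899.7, 917.7 and 695. The groups did not overlap at either age. The log2 fold change over both ages was 1.46 ± 0.13 (SE; 2.75-fold, adjusted p = 2.69e-06), with 1.39 ± 0.18 at 6 weeks and 1.53 ± 0.18 at 12 weeks, and the call over both ages held in all 9 other settings and all 16 fits without 1 library. Its level in gECs was 7.91 times that in all barcodes within the limits.

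Serpine2, a secreted inhibitor of thrombin and plasminogen activators (chr1:79794197-79861180, minus strand), ran from 22.1 through a median of 41.6 to 80.6 CPM in the 8 controls and from 67.8 through 150 to 248 in the 8 DN mice. Only control female 6 weeks replicate 1 and control female 12 weeks replicate 1 reached into the DN range. The log2 fold change was 1.90 ± 0.14 (3.74-fold, adjusted p = 4.6e-07), with DN higher in 8 of 8 pairs. For this and later genes, the share of all genes with such a count was not taken. Serpine2 is also on the mesangial marker list, and its level in gECs was 0.255 of that in all barcodes within the limits, where it ran from 91.4 to 457 CPM in controls and from 304 to 811 in DN. Over the whole list of 10 mesangial genes the summed gEC level was 136 to 353 CPM in controls and 188 to 649 in DN. The part of mesangial transcripts in the Serpine2 result was not tested. Without the no-UMI rule the log2 fold change was 1.29 and the adjusted p 0.0505.

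Cxcl16, a membrane-bound chemokine and scavenger receptor (chr11:70453983-70459984, minus strand), was at 24.9 to 72.2 CPM in controls with a median of 38.5, and at 76.0 to 111 in DN with a median of 91.9. No DN mouse overlapped a control. The difference was 1.24 ± 0.13 on the log2 scale (2.36-fold, adjusted p = 1.92e-05), 1.40 at 6 weeks and 1.08 at 12 weeks. Cxcl16 was the 1 called member of 16 tested genes of leukocyte adhesion and chemokines, beside 0.723% of all genes called higher. With the block Mcam was also higher and Ackr3 lower, beside 2.02% and 1.63% of all genes. The list's median log2 difference was 0.01, beside 0.0 over all genes.

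The lysosomal protease gene Ctsb and the histamine-forming enzyme gene Hdc were also higher at both ages. Ctsb went from a median of 369 CPM in controls (317 to 566) to 731 in DN (469 to 1152), a log2 fold change of 0.80 ± 0.08 (1.75-fold, adjusted p = 1.92e-05). Hdc (chr2:126593667-126619299, minus strand) went from 19.1 (6.02 to 46.4) to 50.6 (38.1 to 71.5), a change of 1.46 ± 0.16 (2.74-fold, adjusted p = 3.09e-05). DN exceeded control in 8 of 8 pairs for both genes. Only control female 6 weeks replicate 1 and control female 12 weeks replicate 1 reached the DN range for Ctsb, and only control female 6 weeks replicate 1 did so for Hdc.

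Other leading genes that were higher over both ages included Bgn, Tbx2, Ak1 and Qrfpr. Bgn (biglycan, a small matrix proteoglycan, chrX:73483602-73495933, plus strand) ran from 23 to 174 CPM in controls (median 36.5) and 83.6 to 346 in DN (median 190), 2.06 ± 0.24 on the log2 scale (1.02 without the no-UMI rule, where it was called at neither single age). The high control was female 12 weeks replicate 2, with 25 gECs, and the level of Bgn in gECs was 1.01 times that in all barcodes within the limits. Tbx2, a T-box transcription factor gene, rose by 1.07 ± 0.13 (2.09-fold). After thinning, Tbx2 was in 3.03% of control and 6.29% of DN gECs, beside 9.14% and 6.76% of tubule barcodes, whose part was not tested. Ak1, an adenylate kinase gene, rose by 1.80 ± 0.25 (3.48-fold), from a median of 6.67 to 24.7 CPM. Qrfpr, a receptor for the peptide QRFP, was at 0 in 6 of 8 controls and at 2.28 to 31.5 CPM in all DN mice (median 9.79, adjusted p = 0.000467). Its fold change depends on the prior count of the model and is not given.

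Genes lower in DN were led by Gimap3, a GTPase gene of a family best known from lymphocytes (chr6:48764464-48770851, minus strand). The 8 controls were at 144 to 401 CPM (median 260) and the 8 DN mice at 62.3 to 199 (median 88.6), lower in each of the 8 pairs. The change was −1.43 ± 0.14 on the log2 scale (2.70-fold lower, adjusted p = 1.68e-05), held in all 9 other settings and all 16 fits without 1 library. Gimap3 was at 7.65 times its level in all barcodes within the limits. Over the 8 immune markers the summed gEC level was 0 to 234 CPM in controls and 2.63 to 166 in DN. Its family member Gimap4 fell at 12 weeks, from 854 to 1605 CPM in controls to 495 to 994 in DN (−0.73 ± 0.13, adjusted p = 0.0159). The Gimap4 call was lost in 4 of 9 other settings and 3 of 16 fits without 1 library. The counts of near-identical Gimap genes are uncertain.

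Calca, which encodes calcitonin and the vasodilator CGRP, was at 39.0 to 307 CPM in controls (median 72.6) and 9.80 to 27.9 in DN (median 19.7), with no overlap. Few cells carried it, with thinned medians of 3.64% of control and 1.28% of DN gECs beside 1.09% and 0.838% of tubule barcodes, and in the highest control (female 12 weeks replicate 2) 1 of 25 cells did after thinning. The fold was 5.44-fold lower (−2.44 ± 0.35, adjusted p = 0.000693), and 2.89-fold lower without the no-UMI rule. The carboxylesterase genes Ces2e and Ces2g fell 2.03-fold and 2.12-fold, from medians of 109 and 48.5 CPM to 54.9 and 25.2. Brinp2 (−2.43 ± 0.35), Erc2 (−1.47 ± 0.25) and S1pr4, a sphingosine phosphate receptor gene (−0.99 ± 0.16), were lower as well. Ankdd1b (−1.12 ± 0.19) and the sodium channel gene Scn7a (−1.24 ± 0.21) were lower over both ages too, from medians of 30.0 and 48.1 CPM to 11.9 and 20.8. Erc2 did not overlap between genotypes (11.9 to 31.6 against 1.61 to 11.3 CPM), and S1pr4 did (17.0 to 61.9 against 5.63 to 44.0).

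Keg1, Ugt2b38 and Ces1f were among the lower genes, and their gEC levels were 0.0981, 0.136 and 0.123 of those in all barcodes within the limits. Keg1 fell from a median of 28.4 to 8.31 CPM in gECs (−1.76 ± 0.22), and Ugt2b38 changed by −1.94 ± 0.30. Ces1f was at 0 in all females of both genotypes, at 14.2 to 32.8 CPM in control males and at 0.285 to 8.44 in DN males, and its fold, which depends on the prior count, is not given. Without the no-UMI rule their adjusted p was 0.113, 0.0853 and 0.0746, with log2 changes of −0.83 for Keg1 and −1.34 for Ugt2b38. Over the 11 proximal tubule markers the summed gEC level was 2299 to 4679 CPM in control males, 892 to 1764 in DN males, 794 to 1699 in control females and 787 to 1234 in DN females. The part of proximal tubule transcripts in these 3 results was not tested. Of the 55 lower genes 23.6% were below 0.5 times their level in all barcodes within the limits, beside 5.63% of the 71 higher genes and 11.5% of all genes tested.

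**Figure D2:**
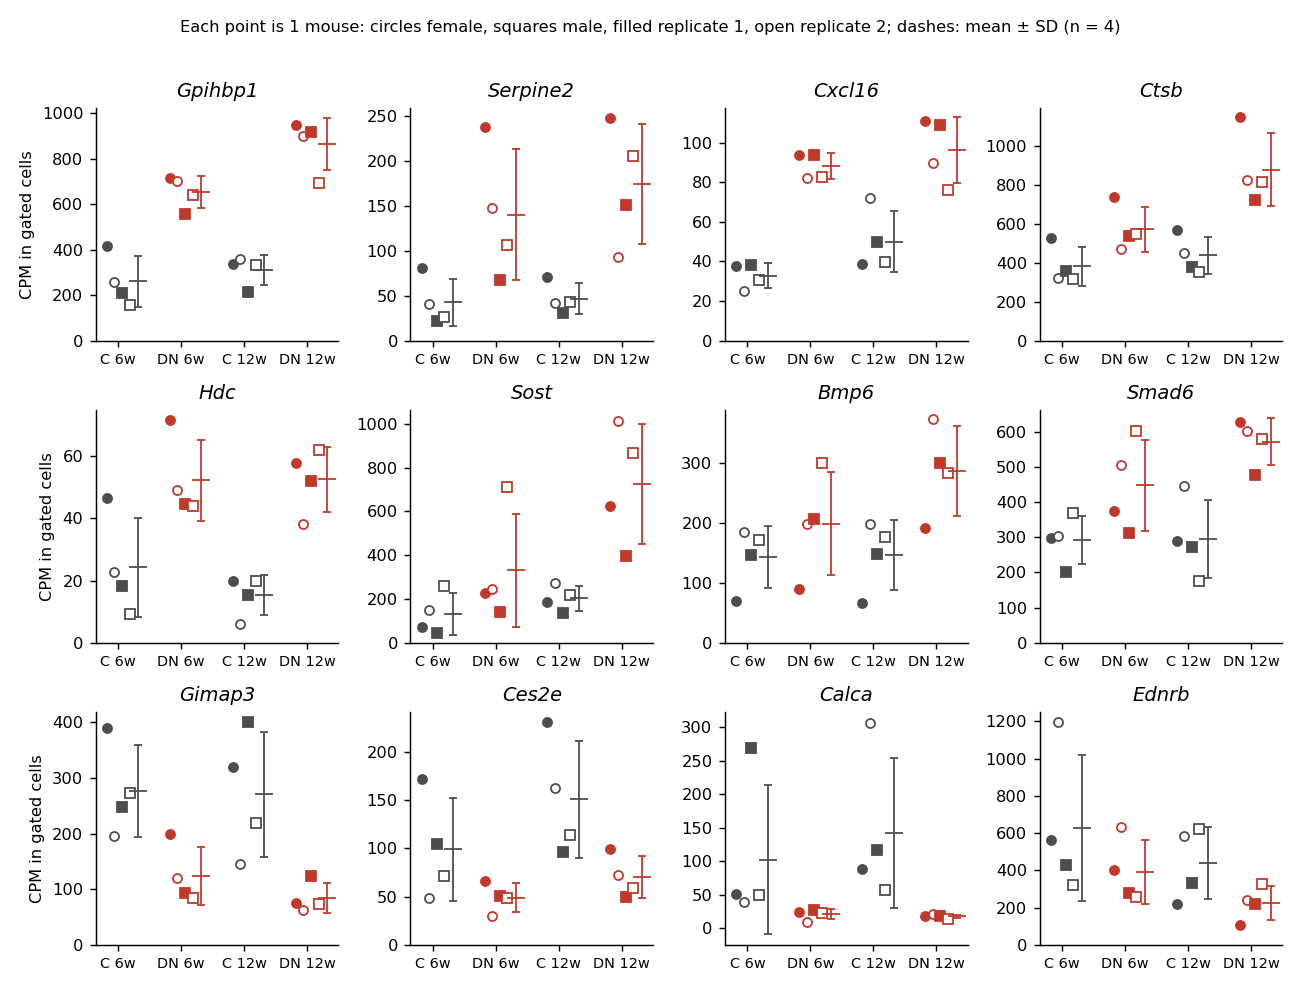
Level of 12 genes in glomerular capillary endothelial cells (TMM-scaled CPM) in each mouse, by genotype and age, with the mean ± SD of 4 mice. Circles are female and squares male, filled symbols replicate 1 and open symbols replicate 2. Gpihbp1, Cxcl16 and Calca show no overlap between DN and control mice.

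Ligands, inhibitors and receptors of BMP and TGF-beta signalling were examined next, since this pathway acts in capillary endothelium through Acvrl1, Bmpr2 and Eng. Over both ages 4 of 23 tested genes were called higher and 0 lower (0.723% and 0.56% over all genes), among them Bmp6, Smad6 and Bambi, with a list median of 0.28 and 18 of 23 values above 0. With the replicate block, where the shares over all genes were 2.02% and 1.63%, 9 were called higher (Bmpr2, Eng, Smad7, Id2 and Skil in addition) and 1 lower (Ltbp4). The list was chosen with earlier results of these data known.

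Bmp6, a secreted BMP ligand (chr13:38345107-38500302, plus strand), was at 65.6 to 199 CPM in controls (median 160) and 89.6 to 374 in DN (median 246), higher in DN in each of the 8 pairs. The log2 change was 0.75 ± 0.11 over both ages (1.68-fold, adjusted p = 0.00148) and 1.04 ± 0.17 at 12 weeks (2.06-fold, adjusted p = 0.00836). At 6 weeks it was 0.45 (adjusted p = 0.527). Without the barcode batch term the adjusted p over both ages was 0.494, and without the no-UMI rule 0.137. In all 16 libraries together its level in gECs was 8.2 times that in all barcodes within the limits.

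Smad6, the intracellular inhibitor of BMP receptor signalling (chr9:63953076-64022059, minus strand), went from 176 to 445 CPM in controls (median 293) to 313 to 629 in DN (median 542). The change was 0.80 ± 0.15 (1.75-fold, adjusted p = 0.00933), and at 12 weeks 1.00 (adjusted p = 0.0498). Bambi, a decoy receptor of the family, rose by 0.76 ± 0.18 (77.0 to 328 against 129 to 308 CPM). Smad6 was not called without the barcode batch term (adjusted p = 0.0960), in the larger batch (0.0576) or with at least 100 gECs (0.0896). Eng, a co-receptor, was at 542 to 1309 CPM in controls and 865 to 2035 in DN (0.65 ± 0.19, adjusted p = 0.13, and 0.000118 with the replicate block).

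Sost, which encodes sclerostin, a secreted inhibitor of WNT signalling that also belongs to the BMP antagonist family (chr11:101962458-101967015, minus strand), was at 12.7 times its level in all barcodes within the limits. The 12-week controls were at 185.5, 271, 137 and 219 CPM and the 12-week DN mice at 626, 1014, 394 and 867. Those 4 did not overlap the controls, whereas at 6 weeks 45.5 to 259 CPM in controls overlapped 140 to 712 in DN. Within each pair of the same age, sex and number DN was higher in 8 of 8. Over both ages the change was 1.6 ± 0.32 (3.02-fold, adjusted p = 0.0135). At 6 weeks it was 1.35 (adjusted p = 0.464, 1.3e-05 with the block) and at 12 weeks 1.84 ± 0.46 (0.0988, 2.23e-07 with the block). The call over both ages was lost in the larger batch (adjusted p = 0.105), with at least 100 gECs (0.168), without the barcode batch term (0.100) and without the no-UMI rule (0.0537).

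The promoter windows of these 3 genes, which were each higher in gECs than in other barcodes and higher in DN, are given for context from RefSeq (GRCm38.p6), 250 bases before to 50 after the start, written 5′ to 3′ on the gene's strand. The start is that of the RefSeq entry, which for Bmp6 lies inside the gene's span given above, taken from the GENCODE annotation. They were chosen after the values were seen. Capitals mark the only matches to 4 searched motifs, on either strand. GTCTAGAC, the palindromic SMAD-binding element, is in 0.213% of 32851 such windows, GGCGCC in 11.9%, TGACTCA in 5.2% and CACGTG in 7.15%. Smad6 held GTCTAGAC at −4, Bmp6 held CACGTG at −127, and Sost held none of the 4, which says only that these letters are not in this window.
Bmp6 (chr13:38345466-38345765, plus strand): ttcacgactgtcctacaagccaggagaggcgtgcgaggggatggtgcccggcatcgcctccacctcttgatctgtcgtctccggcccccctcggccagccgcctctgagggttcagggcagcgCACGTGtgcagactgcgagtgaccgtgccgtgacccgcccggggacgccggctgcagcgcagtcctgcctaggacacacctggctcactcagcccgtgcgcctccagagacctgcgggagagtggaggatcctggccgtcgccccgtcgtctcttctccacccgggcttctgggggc
Smad6 (chr9:64022010-64022309, minus strand): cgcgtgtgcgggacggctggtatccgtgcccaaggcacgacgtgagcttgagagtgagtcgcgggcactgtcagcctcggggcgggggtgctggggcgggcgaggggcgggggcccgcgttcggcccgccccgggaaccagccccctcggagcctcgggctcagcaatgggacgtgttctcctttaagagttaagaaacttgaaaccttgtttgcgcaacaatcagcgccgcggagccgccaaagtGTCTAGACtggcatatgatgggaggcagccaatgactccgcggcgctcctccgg
Sost (chr11:101966966-101967265, minus strand): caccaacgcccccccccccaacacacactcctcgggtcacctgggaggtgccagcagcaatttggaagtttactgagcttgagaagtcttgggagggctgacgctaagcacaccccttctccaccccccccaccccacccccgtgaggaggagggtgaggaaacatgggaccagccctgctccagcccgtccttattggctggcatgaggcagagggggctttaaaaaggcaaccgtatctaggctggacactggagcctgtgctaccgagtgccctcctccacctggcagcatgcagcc

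Of 26 genes of basement membrane and matrix tested, 3 were called higher (Col18a1, Adamts1 and Bgn) and 1 lower (Col15a1), beside 1.28% called over all genes, with a list median of 0.14. Col18a1, the collagen that yields endostatin, went from 78.2 to 200 CPM in controls to 146 to 260 in DN (0.76 ± 0.12, 1.70-fold, adjusted p = 0.00186). Col15a1, the related basement membrane collagen, went the other way, from 48.8 to 180 CPM to 26.7 to 94.7, lower in each of the 8 pairs (−0.95 ± 0.16, adjusted p = 0.00453). Adamts1, a protease of proteoglycans, rose by 1.06 ± 0.21. Without the barcode batch term Col18a1, Col15a1 and Adamts1 had adjusted p of 0.0909, 0.0860 and 0.120. The type IV collagen genes Col4a1 and Col4a2 were at 302 to 940 and 137 to 457 CPM in controls and 318 to 1013 and 190 to 536 in DN, and neither was called (adjusted p = 0.587 and 0.0782). DN was higher in 8 of 8 pairs for each, but the share of all genes with such a count was not taken, so nothing is read from it. With the block 5 matrix genes were called higher (Col18a1, Adamts1, Bgn, Lamb2 and Col4a2, the last at 0.43 with adjusted p = 0.00108) and 2 lower (Col15a1 and the type IV collagen gene Col4a4), beside 2.02% and 1.63% of all genes.

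Among 24 genes of flow response, nitric oxide and endothelin, 1 was called higher and 1 lower (0.723% and 0.56% over all genes), and with the block 4 higher (Ramp3, Adm, Adora2a and S1pr1) and 2 lower (Thbd and Ednrb, beside 2.02% and 1.63% of all genes). Ednrb, the endothelin B receptor, fell on the log2 scale (−0.78 ± 0.13, 1.71-fold lower, adjusted p = 0.00453), from 220 to 1194 CPM (median 496) to 108 to 630 (median 266), lower in each of the 8 pairs with overlapping ranges. Adm, the vasodilator adrenomedullin, rose by 1.23 ± 0.21 (2.84 to 61.1 against 6.92 to 87.9 CPM). Nos3, endothelial nitric oxide synthase, was at 39.1 to 97.5 CPM in controls and 25 to 65.5 in DN (−0.37 ± 0.16, adjusted p = 0.427). Klf2, a flow-induced transcription factor, was at 1384 to 4489 and 1318 to 4017 CPM (−0.13 ± 0.14, adjusted p = 0.907). Edn1, the ligand of Ednrb, was not called either (0.59 ± 0.22, adjusted p = 0.271). At 12 weeks the block called Edn1, Klf4 and Adm higher and Ednrb lower, beside 1.19% and 0.875% of all genes. Without the barcode batch term Ednrb had an adjusted p of 0.345.

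The remaining pathway lists had few called members, where 1.28% of all genes were called. In lipid uptake and use 1 of 19 was called (Gpihbp1), in VEGF and angiopoietin signalling 1 of 17 (Dusp6, higher), in Notch signalling 1 of 12 (Hey2, lower), and in insulin, leptin and growth factor receptors 2 of 15 (Igfbp3 higher, Igfbp5 lower). Igfbp5, an insulin-like growth factor binding protein gene enriched in gECs, went from 2167 to 6420 CPM (median 4293) to 1882 to 4619 (median 2758), lower in each of the 8 pairs (−0.52 ± 0.12, adjusted p = 0.0376). Lpl, whose product is anchored by the Gpihbp1 protein, was at 18.9 to 96.3 CPM in controls and 25.7 to 240 in DN (0.54 ± 0.23, adjusted p = 0.4). Among MRTF-SRF and YAP targets 1 of 34 was called (Cyr61, higher), and among arterial genes 1 of 14 (Slc6a6, higher). With the block, where 3.64% of all genes were called, the calls were 3 in the lipid list, 2 in the VEGF list, 3 among MRTF-SRF and YAP targets, and 2 higher and 1 lower among arterial genes. The block also called Lfng higher and Hey2 lower in the Notch list. In the list of insulin, leptin and growth factor receptors it called Igfbp3 higher, and Ghr and Igfbp5 lower. None of 29 genes of glucose use and redox was called (list median −0.0, and 1 with the block, Sod1), nor of 13 glycocalyx genes with or without the block. The 21 pan-endothelial genes had 0 calls and a median of 0.08, and with the block 3 were called (Eng, Egfl7 and Tspan7). Markers of peritubular and venous endothelium were higher in DN gECs in value, with 6 of 6 tested genes above 0 (median 0.55, 0.0 over all genes), 1 called (Igfbp3) and 3 called with the block (Igfbp3, Nr2f2 and Fabp4). The summed level of 11 genes of this list was 2192 to 3240 CPM in controls and 2823 to 4088 in DN. Cd9 (mean 963 CPM), Cd300lg (764) and Fabp4 (1000) had much of it. Against peritubular and venous cells, compared below, 2 of 7 tested list genes were higher in gECs (Cd9 and Cd300lg). Another 4 were lower (Igfbp3, Igfbp7, Vwf and Fabp4), beside 18.6% and 19.5% of all genes. The part of peritubular and venous transcripts in the DN results was not tested. Among markers of other cells, 0 of 5 smooth muscle and renin, 0 of 3 immune, 0 of 9 distal nephron (Defb1 lower with the block) and 0 of 5 erythrocyte genes were called, 1 of 8 mesangial (Serpine2, higher), 1 of 7 podocyte (Cdkn1c, lower, and Thsd7a higher with the block) and 1 of 11 proximal tubule genes (Kap, lower, and 7 lower with the block).

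At 6 weeks 15 of 9823 genes were called (0.153%), 8 higher (0.0814%) and 7 lower (0.0713%), and at 12 weeks 43 (0.438%), 28 higher (0.285%) and 15 lower (0.153%). The ages share no mice. Bgn, Ctsb, Cxcl16, Gpihbp1, Hdc, Serpine2 and Tbx2 were called higher at both, and Ces2e, Ces2g, Gimap3 and Keg1 lower at both. At 6 weeks Sntb2 (0.70 ± 0.13) was called higher and Ugt2b38, Ces1f and Tcaim (−1.14 ± 0.22) lower in addition. Sntb2 lost its call in 4 of 9 other settings and 8 of 16 fits without 1 library, and Tcaim in 3 and 11. With the replicate block the counts were 72 at 6 weeks (0.733%, 0.377% higher and 0.356% lower) and 203 at 12 weeks (2.07%, 1.19% higher and 0.875% lower). Without the no-UMI rule edgeR called 0 genes at 6 weeks, where 545 had a raw p under 0.05, and 66 at 12 weeks, and the larger batch alone gave 9 at 12 weeks.

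Several genes of the p53 and cell cycle list and of early response were called at 12 weeks. Cdkn1a, the cell cycle inhibitor p21, was at 125 to 270 CPM in 12-week controls and 396 to 723 in DN (1.43 ± 0.29, 2.70-fold, adjusted p = 0.0312). At 6 weeks it was at 150 to 1266 and 345 to 1172 CPM (0.38 ± 0.27, adjusted p = 1.0). Phlda3, another p53 target, was at 51.1 to 153 CPM against 152 to 266 at 12 weeks (0.99 ± 0.21), and in the p53 and cell cycle list these were the 2 calls among 18 genes, beside 0.438% of all genes. Over both ages these 2 were higher and Cdkn1c lower, beside 0.723% and 0.56% of all genes. With the block Bax was also higher at 12 weeks, beside 1.19% of all genes. Over both ages the block added Bax, Mki67 and Top2a as higher and kept Cdkn1c as lower, beside 2.02% and 1.63%. Dusp1 (0.73 ± 0.13), Fos (2.16 ± 0.46), Socs3 (1.46 ± 0.31) and Dusp6 (1.49 ± 0.32), which respond quickly to growth factors, cytokines and also to tissue dissociation, were called at 12 weeks as well. In the dissociation and immediate early list 3 of 32 genes were called at 12 weeks with a median of 0.39, beside 0.438% of all genes, and 0 at 6 weeks with a median of 0.02. With the block 7 were called higher at 12 weeks and 1 lower (Hspa5), beside 1.19% and 0.875% of all genes, among the higher Junb, Zfp36 and Gadd45g. Cdkn1a, Phlda3, Dusp1, Fos, Socs3 and Dusp6 were also called over both ages. Without the barcode batch term none of them was called at 12 weeks. Cdkn1a alone was called in the larger batch (adjusted p = 0.0304), and only Fos (0.0367) and Socs3 (0.00498) with at least 100 gECs.

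Whether the DN effect differed between the ages was tested as a difference of the coefficients. No gene of 9823 passed in edgeR (0.0%, with 289 at a raw p below 0.05) or in DESeq2 (0 calls, with 205 at such a raw p). The smallest p among higher values belonged to Npnt (1.36 ± 0.35), Dusp1 (0.70 ± 0.18) and Tnfaip3 (1.70 ± 0.45), and among lower values to AU020206 (−1.39), Fxyd4 (−2.26) and Gstt1 (−1.82), each with an adjusted p of 1.0. With the block 1 gene, Fxyd4, was called (0.0102%). Without the low-count filter 20 of 17800 genes passed as higher and 36 as lower, among them 5 of the genes listed above for their small p. As the count depends on that filter, the calls at 12 weeks and not at 6 weeks are not shown to be age-specific.

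**Figure D3:**
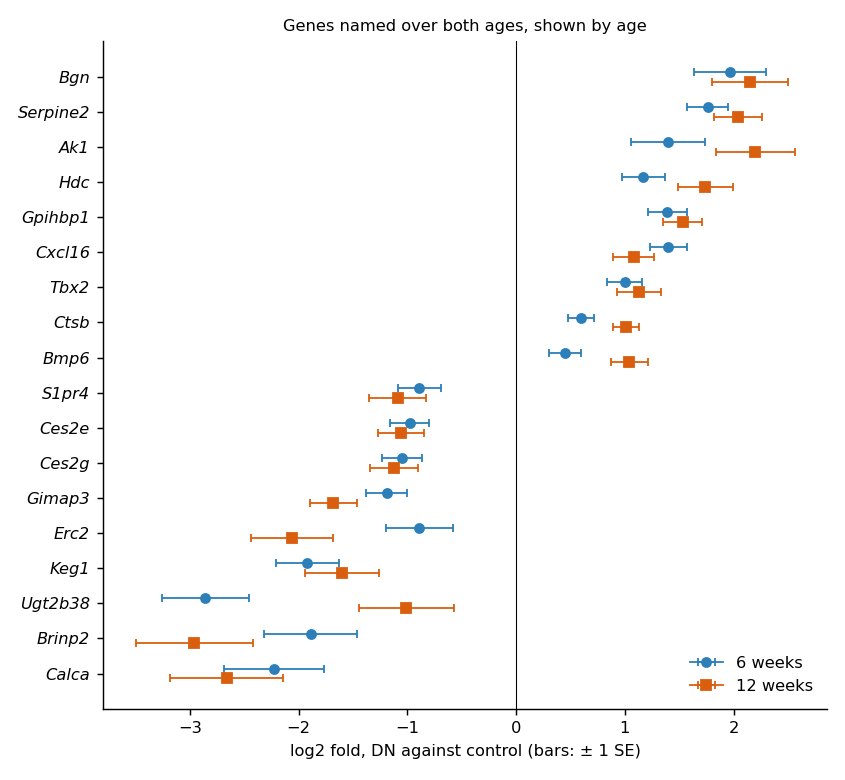
Log2 fold change of DN against control in glomerular capillary endothelial cells at 6 weeks (circles) and 12 weeks (squares), with bars of 1 SE, for the genes with the smallest p over both ages, without Qrfpr and Ces1f. Each drawn gene has the same sign at both ages, but the genes were chosen by the mean of both ages, so nothing is read from that. With the low-count filter and no replicate block, none of the genes tested passed the test of a difference between the ages.

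The levels above are sums over cells, so the share of gECs with a UMI was also taken after thinning each cell to 1000 UMIs (2749 of 2827 control and 2691 of 2766 DN gECs were deep enough). Gpihbp1 had a UMI in 14% to 32% of control gECs (median 19.2) and 34.4% to 53% of DN gECs (median 41.1), without overlap, against at most 0.282% of tubule barcodes. Unthinned medians were 42.2% and 71.1%. Sost went from a median of 10.8% to 31.8% (unthinned 29.0% and 48.4%), Serpine2 from 3.63% to 11.8% (12.9% and 33.8%) and Bgn from 2.95% to 14.6% (12.1% and 41.3%). The ranges overlapped for Sost (4.54% to 15.9% and 10.6% to 48.6%) and Serpine2 (1.87% to 12% and 6.49% to 17.8%). Gimap3 went from 21.8% to 8.75% (50.2% and 25.8%), with overlapping ranges (8% to 32.6% and 5.36% to 13.8%). In tubule barcodes no library exceeded 0.379% for Sost, 2.3% for Serpine2, 1.27% for Bgn or 0.379% for Gimap3. The lowest Serpine2 share of control gECs was within the tubule range. Library median depths were 1524 to 14350 UMIs for tubule barcodes and 1716 to 6523 for gECs. As tubule barcodes had to lack the 4 gEC markers, those with stray gEC transcripts were partly left out. Their low shares, also for Gpihbp1, are therefore no measure of the background in gECs. For Cxcl16 (4.09% and 8.92% of gECs), Tbx2, Keg1 and Lpl the gEC share was near or below that of tubule barcodes (7.31% and 7.96% for Cxcl16), and no difference is read from it.

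**Figure D4:**
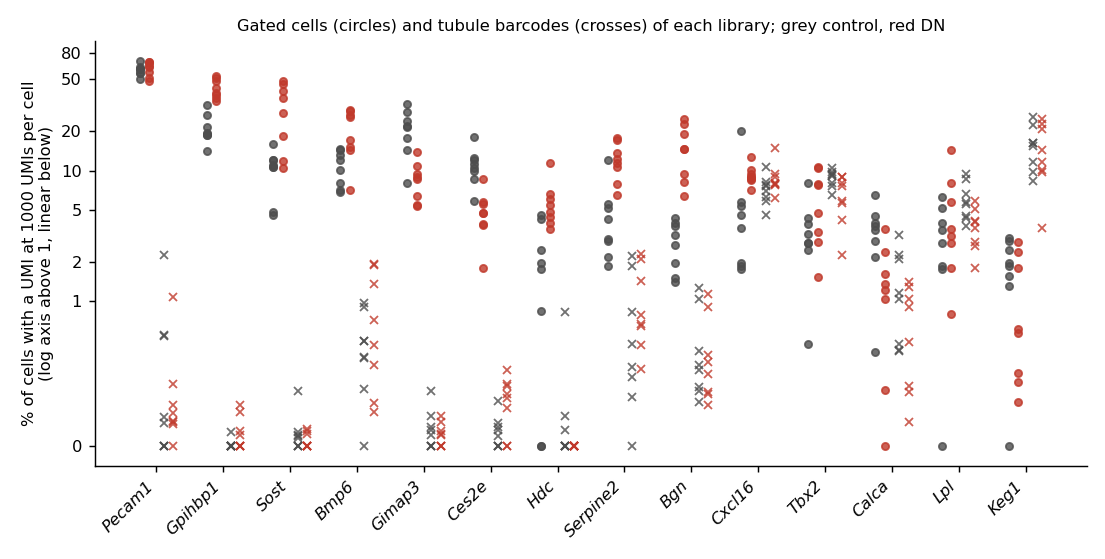
Percent of cells with a UMI of 14 genes after thinning to 1000 UMIs, in glomerular capillary endothelial cells (circles) and tubule barcodes (crosses), per library, grey control and red DN. The axis is logarithmic above 1 and linear below. Gpihbp1 runs from 14% to 32% in control and 34.4% to 53% in DN cells.

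What separates gECs from the neighbouring endothelium was measured against peritubular and venous endothelial cells (pECs), gated on Plvap with no Ehd3 (1116 cells). The gate also needed UMIs among Pecam1, Cdh5 and Egfl7, and it excluded no arterial gene. In the 13 libraries with at least 10 cells of both, 3678 of 9648 genes differed (38.1%), 1794 higher (18.6%) and 1884 lower (19.5%) in gECs, with the library as a block. All genes of either gate were left out of the calls. Because 38.1% of genes were called, counts in a list are read against that share.

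The transcription factor gene Gata5 was at 135 to 273 CPM in gECs and 0 to 8.57 in pECs, and Tbx3 at 387 to 573 and 73.7 to 167 (2.14 on the log2 scale). Neither overlapped between the cell types. Nrp1, a VEGF and semaphorin co-receptor gene, was at 1732 to 3342 CPM in gECs and 395.5 to 804.3 in pECs (2.23 ± 0.06, adjusted p = 5.15e-20). Dlc1, a GTPase-activating protein gene, was at 789 to 1064 and 156 to 251 CPM. Gimap3 was at 73.1 to 388 CPM in gECs and 0 to 11.2 in pECs (5.78). Several of the genes that differed by genotype were far higher in gECs than in pECs. On the log2 scale this was 2.90 for Bmp6 (7.46-fold), 2.39 for Smad6, 2.49 for Sost, 3.42 for Hdc and 1.97 for Cxcl16. Others were lower in gECs, among them Serpine2 (−1.85), Slc6a6, Igfbp3, Dusp6, Cyr61, Fos and Dusp1.

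Higher in pECs were Scin, an actin-severing protein gene (1.74 to 22.1 CPM in gECs against 169 to 1196, −5.48 ± 0.14), Npnt, an integrin ligand gene (15.8 to 59.2 against 251 to 1030, −3.99), Mal (−2.22), St8sia6 (−3.24) and Tmsb4x (−1.90). Of 23 genes of flow response, nitric oxide and endothelin, 10 were higher in gECs, among them Nostrin, Ednrb and Adm, and 9 lower, among them Nos3 (−1.32), Edn1 (−1.90) and Thbd (−1.26). Nos3 was at 24.1 to 94.7 CPM in gECs and 50.6 to 238 in pECs.

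By list, 16 of 20 glomerular endothelial genes were higher in gECs and 1 lower (median 2.15), which describes the gate's label. In BMP and TGF-beta signalling 15 of 24 were higher and 3 lower (median 0.50), among them Eng (1.14 ± 0.07). In antigen presentation and interferon response 34 of 37 were lower and 0 higher (median −0.85). Cd74, the invariant chain of MHC class II, was at 0 to 151 CPM in gECs and 9.45 to 400.5 in pECs (−3.13), and the class I genes H2-K1 (−0.68), H2-D1 (−0.50) and B2m (−0.33) had smaller differences. Of 14 arterial genes 13 were lower and 1 higher (Efnb2), and of 34 immediate early genes 21 were lower and 5 higher. Since the pEC gate excluded no arterial gene, it may hold arterial cells, and their part in the arterial result was not tested. In glucose use and redox 17 of 29 were lower and 6 higher, and among the lower were the glucose transporter gene Slc2a1 and the glycolytic genes Gapdh, Pgk1, Eno1, Pkm and Ldha. Markers of other cells moved too. Higher in gECs were 10 of 11 proximal tubule, 4 of 9 distal nephron, 4 of 4 erythrocyte (median 3.81) and 4 of 7 mesangial genes (Itga8, Ptn, Adamts5 and Sfrp2, median 1.06, with Serpine2 and Art3 lower), while 5 of 7 podocyte genes were lower and 2 higher. Their part in these results was not tested.

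**Figure D5:**
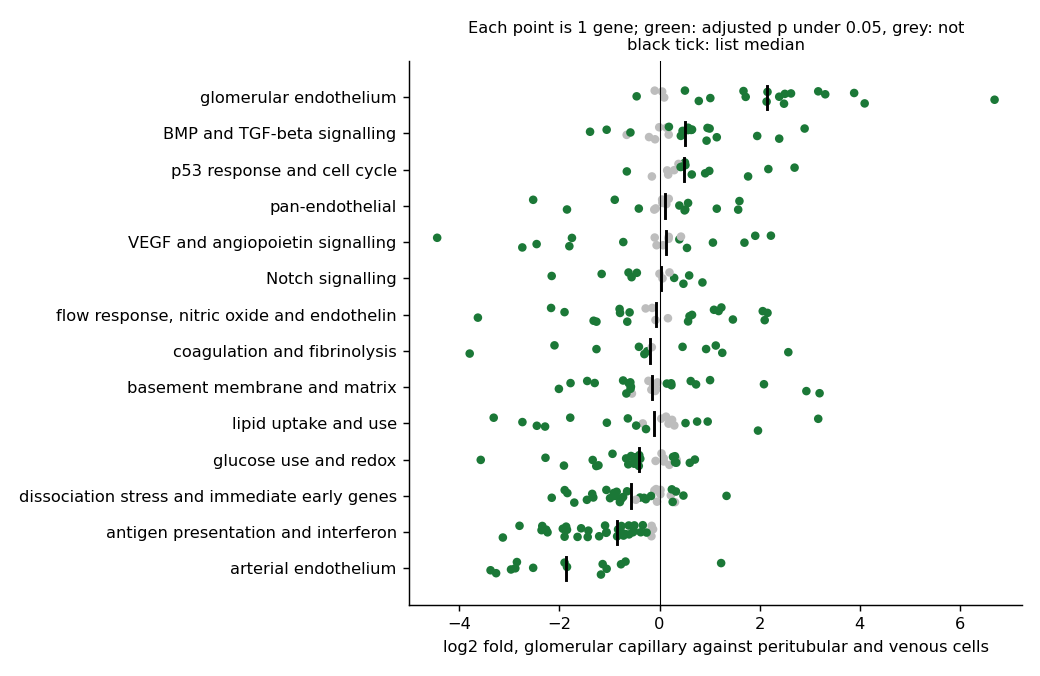
Log2 fold change of glomerular capillary against peritubular and venous endothelial cells for the tested genes of 14 lists, green where called and grey where not, with a black tick at each list's median; genes of the gates are left out. The medians run from 2.15 for glomerular endothelium to −1.87 for arterial endothelium.

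Few genes were called by age or sex, but the age count depended on the gate. Without the no-UMI rule 181 genes were called higher and 157 lower at 12 weeks. Between 12 and 6 weeks, over both genotypes, 2 genes were called (0.0204%), Trim37 (−1.23 ± 0.18, adjusted p = 0.0136) and Rasd1, a dexamethasone-induced Ras gene (−1.46 ± 0.24, 16.9 to 38.3 CPM at 6 weeks and 0 to 14.7 at 12 weeks). DESeq2 gave no adjusted p for either. Rasd1 lost its call in 4 of 7 other settings and 9 of 16 fits without 1 library, and Trim37 in 2 and 4. Pcp4l1 (0.57 ± 0.11) and Otulin (0.48) had the smallest p among higher values with Ctsb (0.40) and were not called by edgeR, whereas DESeq2 called all 3 (adjusted p = 0.00251, 0.0125 and 1.77e-05). Between females and males 18 were called (0.183%), 8 higher (0.0814%) and 10 lower (0.102%) in females, including Xist and Tsix, which overlap on opposite strands, and the Y-linked Ddx3y, Eif2s3y, Uty and Kdm5d. Of the 10 lower genes, 4 were the haemoglobin genes Hbb-bs, Hbb-bt, Hba-a1 and Hba-a2, markers of erythrocytes, whose part in the sex comparison was not tested. Lpl was higher in females (1.58 ± 0.29, 2.99-fold, adjusted p = 0.0184), a call lost in 4 of 8 other settings and 4 of 16 fits without 1 library, with 0.48 without the no-UMI rule and adjusted p = 0.442 without DN female 6 weeks replicate 2. Also higher were Cadm1 (2.77), Wdr89 (1.40) and Thbd (0.73). Kap (−3.83 ± 0.51) and Ugt2b38 (−3.30) were lower. Kap is on the proximal tubule list, at 0.127 of its level in all barcodes within the limits, and Ugt2b38 was also low by that measure, as given above. The part of proximal tubule transcripts in these 2 results was not tested. All 4 libraries of the smaller barcode batch were replicate 1 of female groups, so the other female libraries were all replicate 2, whereas the males had both numbers. In the sex comparison, sex and the differences between replicate 1 and 2 libraries cannot be fully told apart.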

How the data were processed

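Kidney cells of 16 mice were profiled with Chromium 3′ kits. The authors deposited raw UMI counts per gene and barcode, made with Cell Ranger 3.0.2 on mm10 per the submitters' processing notes. The strand used in counting is not given in the sources used here, so antisense and overlapping genes (Xist and Tsix) are uncertain, as are near-identical families (Gimap, Ces, Ugt2b, H2, haemoglobin). The members, gene lists and model terms were chosen with earlier results of these data known. Promoters come from RefSeq (GRCm38.p6) and gene positions from the GENCODE annotation of mm10.

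Counts of the gated barcodes were summed per library, since cells are not replicates. The study tested single cells with MAST, but here cell types are compared over libraries. Genes passing edgeR's filterByExpr were fitted with edgeR 4.0.16 (R 4.3.3; TMM, quasi-likelihood) with sex within age, genotype within age and barcode batch (read from barcodes shared between libraries, since the labels give no kit per library) as terms, adjusted by Benjamini-Hochberg over all genes tested. Gate genes were fitted but not called. The alternatives used DESeq2 1.42.0, other size factors, no low-count filter, stricter or looser gates, subsets of libraries, leaving out each library, and a replicate block. Doublets were handled only by the rule of no UMI of 6 genes. Shares used scipy 1.17.1 (numpy 2.4.6, pandas 2.3.3, Python 3.11.15). The main fit and the fit against pECs were tested on simulated data. In simulated 12-week DN changes, 69% of genes with a log2 change of 1 were called, and 99% with a change of 2. Of 9441 genes without a change 13 were called (0.138%). The replicate block and the fit without the low-count filter were not simulated.

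Same-numbered DN and control libraries deviated together (correlation over 9827 genes of 0.725, 0.343, 0.287 and 0.191 for females at 6 and 12 weeks and males at 6 and 12 weeks). In every female group the replicate numbers also separate the barcode batches, so the female correlations cannot tell pairing from batch. The males were all in the larger batch and had the lower values. The numbers were taken as pairing the samples, but whether the mice were paired was not tested apart from these counts. Results with the replicate block and counts of pairs rest on this choice. The share of all genes with the same direction in all pairs was not taken, so counts of pairs only describe the named genes.

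Named genes were up to 10 per direction with the smallest p for each DN comparison and up to 5 for the others, up to 3 uncalled where none was called, and from each of 27 lists every called gene and up to 4 of highest mean CPM. Gm, Rik, clone, mitochondrial and ribosomal protein genes were passed over. Other genes were named after their values were seen. The result of 1 gene and of the list of coagulation genes is not reported here.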

Additional observations from a re-analysis of the deposited data

Results flagged for a closer look

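In 6 of 112 groups of 4 mice examined for 27 named genes and the gEC share, the highest or lowest mouse stood apart from the other 3 by Dixon's criterion, and chance gives about 1 in 20. In gECs of 6-week controls Calca was at 269 CPM in control male replicate 1 (others 39.0 to 51.3), Erc2 at 23.8 in the same mouse (others 11.9 to 13.3), S1pr4 at 61.9 in control female replicate 1 (others 28.2 to 32.2), and Sntb2 at 43.97 in that mouse (others 69.4 to 72.75). In 6-week DN mice S1pr4 was at 43.95 in female replicate 1 (others 12.3 to 16.5) and Ces1f at 2.99 in male replicate 2 (others 0 to 0.285).

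The DN effect on Fxyd4 differed between the ages with the replicate block (−2.14 ± 0.33 for 12 against 6 weeks, adjusted p = 0.0235) but not without it (−2.26, adjusted p = 1.0). Fxyd4 is known as a subunit of the sodium pump in collecting duct. In gECs it was at 33.2 to 97 CPM in controls and 6.92 to 25.3 in DN at 12 weeks, and at 18.8 to 61.5 and 17.0 to 48.9 at 6 weeks. In all barcodes within the limits it was at 1180 to 2360 CPM in 12-week controls and 694 to 1240 in DN, and the part of these transcripts in the gEC value was not tested.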

How the results depend on the processing

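Each comparison was recomputed under 1 changed choice at a time. For the gEC share, DN minus control turned positive over both ages without the no-UMI rule (1.99 points), among endothelial gates (1.21) and in the larger batch (1.20), at 6 weeks with those 3 choices (1.49, 3.19 and 2.49) and after thinning (0.0256), and at 12 weeks without the no-UMI rule (2.50). Without 1 library it ran from −4.93 to 3.35, −9.50 to 7.05 and −4.85 to 4.14 points over both ages, at 6 and at 12 weeks. The cause was not tested.

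At 6 weeks the 15 calls became 2 without the barcode batch term, 155 without a low-count filter, 0 without the no-UMI rule and 72 with the replicate block. At 12 weeks the 43 became 1 without the barcode batch term, 75 with DESeq2, 237 without the filter, 9 in the larger batch, 66 without the no-UMI rule, 203 with the block and 13 with at least 100 gECs. Over both ages the 126 became 18 without the barcode batch term, 386 without the filter, 83 in the larger batch, 358 with the block and 68 with at least 100 gECs. The 0 calls for the difference between ages became 56 without the filter and 1 with the block. The 2 age calls became 0 without the barcode batch term, 16 with DESeq2, 161 without the filter, 0 in the larger batch, 1 with the stricter gate, 338 without the no-UMI rule and 7 with at least 100 gECs. The 18 sex calls became 61, 49 and 210 without the barcode batch term, with DESeq2 and without the filter.

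Leaving out 1 library gave 5 (without DN male 6 weeks replicate 1) to 27 calls (without control female 6 weeks replicate 1) at 6 weeks, 7 (without control male 12 weeks replicate 1) to 60 (without DN male 6 weeks replicate 1) at 12 weeks, 58 (without control male 12 weeks replicate 1) to 146 (without control female 6 weeks replicate 1) over both ages, 0 to 0 for the difference between ages, 0 (without control female 6 weeks replicate 1) to 9 (without DN female 12 weeks replicate 2) for age, 10 (without control female 6 weeks replicate 2) to 33 (without DN male 6 weeks replicate 2) for sex, and 3383 to 3732 against pECs. For single named genes, 1767 values kept their direction and side of the threshold, 268 fell below it, 12 passed it, and Npnt reversed for the difference between ages (−0.36 without the no-UMI rule). The setting with at least 100 gECs was chosen after seeing the data.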

Other observations

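In 6-week mice 13 of 15 circadian clock genes had positive DN values in gECs (list median 0.92 on the log2 scale) and at 12 weeks 7 of 15 (median −0.03), with 0 genes called at either age or for the difference between the ages, beside a median of 0.0 over all genes. Over both ages Per1 and Cry1 were called higher with the replicate block, beside 2.02% of all genes. The time of day at which the kidneys were taken is not given in the sources used here. For antigen presentation and interferon response 33 of 37 genes had positive values at 6 weeks (median 0.49) and 14 of 37 at 12 weeks (median −0.14), again with 0 called. With the replicate block H2-Q6 and Ly6c1 were called higher at 6 weeks (0.377% of all genes) and Ly6c1 at 12 weeks (1.19% of all genes). MRTF-SRF and YAP targets had a median of 0.32 at 12 weeks with 28 of 34 values above 0 and 0 called. With the block Vcl, Cyr61, Amotl2 and Filip1l were called higher at 12 weeks, beside 1.19% of all genes.

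Haemoglobin transcripts made up over 5% of UMIs in 28 of the 5593 gECs, 0 to 7 per library. In control female 6 weeks replicate 1, 1 cell held 98.8% of the haemoglobin UMIs of its gECs, and in control male 12 weeks replicate 2 haemoglobin made up 3.07% of all gEC UMIs. These cells were kept, since no limit on haemoglobin was part of the rule.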
